A study of Mus musculus with 34 samples.

Results

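Tofacitinib was compared with vehicle in the hippocampus of 5xFAD mice. The comparison takes the 5 libraries of 5xFAD animals given tofacitinib and the 4 libraries of 5xFAD animals given sham gavage, chosen by their labels, which are 9 of the 34 libraries of the series. The tofacitinib animals received 15 mg/kg every day for a month by oral gavage, and the sham animals received the 0.5% methylcellulose vehicle on the same schedule. All were 6 months old, with 2 females and 3 males given tofacitinib and 1 female and 3 males given sham. All 9 carry the 5xFAD transgenes and none carries the Dp16 duplication. The design text names 6 tofacitinib-treated 5xFAD mice, of which 1 is not analysed here. The other 25 libraries are of wild-type C57BL/6J (WT), Dp16 and 5xFAD-Dp16 mice with either treatment, 10, 8 and 7 in number. Dp16 mice carry a duplication of the chromosome 16 segment that corresponds to much of human chromosome 21. These animals were also 6 months old, with both sexes in every group. Tofacitinib and sham groups held 5 and 5 WT, 5 and 3 Dp16, and 4 and 3 5xFAD-Dp16 animals. The 25 libraries entered the same fit and were used to ask whether the response of 5xFAD mice differed from that of other genotypes.

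Tofacitinib is an oral inhibitor of Janus kinases (JAKs), with most effect on JAK1 and JAK3. JAKs sit on the receptors of interferons and many cytokines, and pass the signal to STAT transcription factors, which switch on interferon-stimulated genes and the SOCS genes that turn the pathway off again. The 5xFAD mouse carries human transgenes, mutated as in inherited Alzheimer's disease, that the Thy1 promoter drives in neurons. It accumulates amyloid plaques, around which microglia take up a state marked by genes such as Cst7, Clec7a and Itgax, and astrocytes become rich in Gfap. Interferon-stimulated genes and MHC class I genes are part of the glial response to plaques.

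Libraries held 16.4 to 18.9 M counts in tofacitinib and 17.5 to 20.3 M counts in sham animals. The labels number the animals of each group and give no litter. P-values are set against the spread between numbered animals within groups, estimated over all 34 libraries. Levels are CPM, scaled to 1 M counts in tested genes after TMM normalization, and are given for tofacitinib animals 1, 2, 4, 5 and 6 and then for sham animals 1, 2, 3 and 4. Errors after ± are SD over 5 tofacitinib and 4 sham 5xFAD, 5 tofacitinib and 5 sham WT, or 5 tofacitinib and 3 sham Dp16 animals. Fold changes are log2 of tofacitinib over sham with a 95% interval. An adjusted p is from the edgeR quasi-likelihood test with Benjamini-Hochberg adjustment over all genes, with a threshold of 0.05.

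One tofacitinib library stood apart. In tofacitinib animal 2 the CA1 pyramidal cell list had a mean of 3.40 log2 CPM, against 5.83 to 6.15 in the other tofacitinib and 5.77 to 6.30 in the sham libraries. The thalamus and habenula list stood at 6.25 in that library, against 2.52 to 3.53 and 2.45 to 3.05, and the striatum list at 6.16, against 2.06 to 2.57 and 2.09 to 2.61. The thalamic transcription factor Tcf7l2 was at 206 CPM there, and the CA1 gene Fibcd1 at 9.73 CPM, against 79.8 to 134 CPM in the other 8 libraries. The edgeR counts, fold changes and list medians were therefore also computed without this library. The RPKM levels, the DESeq2 calls and the shares of intervals within a 2-fold change were computed with all libraries only. Choroid plexus genes split the animals another way. Ttr, the thyroid hormone carrier made by choroid plexus, was at 4410 and 3600 CPM in tofacitinib animals 2 and 6 and at 4320 and 4010 CPM in sham animals 1 and 4. It was between 3.02 and 29.4 CPM in the other 5 animals.

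**Figure D1:**
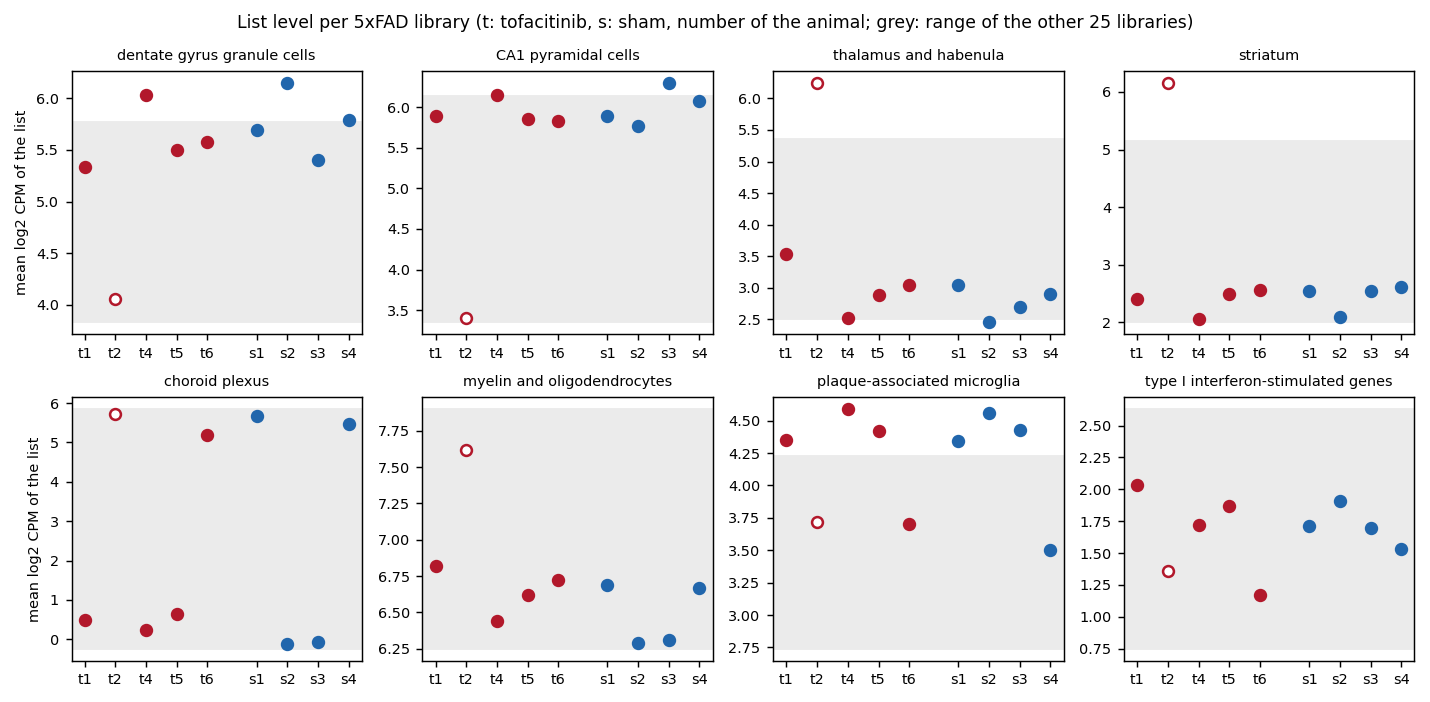
Mean log2 CPM of 8 gene lists in each 5xFAD library, with tofacitinib animals (t, red) left of sham animals (s, blue), the open circle for tofacitinib animal 2 and a grey band for the range of the other 25 libraries. Tofacitinib animal 2 is at 3.40 on the CA1 list and at 6.25 on the thalamus and habenula list, and the choroid plexus list splits both groups into libraries above 5 and libraries below 1.

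The letters that STAT complexes are known to bind occur in the promoters of some of the genes read out below, and 4 that hold a match are printed to show what such letters look like. RefSeq windows were found for 47 of the 62 genes ordered by role. STAT complexes of the type I interferon response bind interferon-stimulated response elements (ISREs), which were searched as the letters GAAANNGAA, and STAT homodimers bind gamma-activated sites (GAS), which were searched as TTCNNNGAA, on both strands. Each sequence is the 250 bases before the gene's start from RefSeq (build GRCm38.p6), 5′ to 3′ on the gene's own strand, with matches in capitals.
Ifit3 (chr19:34583279-34583528, plus strand): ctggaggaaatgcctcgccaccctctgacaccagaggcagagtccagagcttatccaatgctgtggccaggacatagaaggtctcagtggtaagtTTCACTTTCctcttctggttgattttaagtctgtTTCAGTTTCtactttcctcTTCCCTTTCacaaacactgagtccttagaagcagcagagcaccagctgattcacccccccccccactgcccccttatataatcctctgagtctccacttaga
Isg15 (chr4:156200819-156201068, minus strand): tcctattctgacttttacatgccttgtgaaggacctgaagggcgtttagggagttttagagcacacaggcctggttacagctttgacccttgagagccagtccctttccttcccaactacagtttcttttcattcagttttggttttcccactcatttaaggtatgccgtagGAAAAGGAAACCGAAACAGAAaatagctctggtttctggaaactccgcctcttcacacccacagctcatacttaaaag
Irf1 (chr11:53769764-53770013, plus strand): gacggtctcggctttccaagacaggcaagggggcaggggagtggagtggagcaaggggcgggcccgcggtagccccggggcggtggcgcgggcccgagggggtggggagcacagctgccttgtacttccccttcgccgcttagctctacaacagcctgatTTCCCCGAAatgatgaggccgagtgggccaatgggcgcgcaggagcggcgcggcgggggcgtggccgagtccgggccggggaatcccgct
Socs3 (chr11:117969367-117969616, minus strand): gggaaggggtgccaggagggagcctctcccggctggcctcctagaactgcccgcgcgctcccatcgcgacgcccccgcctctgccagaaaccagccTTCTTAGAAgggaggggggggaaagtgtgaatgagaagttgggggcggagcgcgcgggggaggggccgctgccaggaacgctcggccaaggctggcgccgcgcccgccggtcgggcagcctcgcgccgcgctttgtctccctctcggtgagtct
These 4 were chosen because they hold a match. Ifit3 holds 3 separate ISRE matches, all on the opposite strand, and Isg15 holds 3 that overlap into 1 run. The windows of Irf1 and Socs3 each hold 1 GAS match and no ISRE match, and a second Irf1 window holds neither. Of the 47 genes with a window 11 had an ISRE match, 5 a GAS match and 32 neither. Among 7 type I interferon genes 4 had an ISRE match and 3, Irf7, Oasl2 and Lgals3bp, had neither. Among 5 feedback genes Socs3 had a GAS match, Socs1 had ISRE matches, and Cish, Pim1 and Bcl3 had neither. Among 7 MHC class I and interferon-gamma genes 2 had an ISRE match and 3 a GAS match. Of all 32851 RefSeq windows of this length, 7.13% held an ISRE match, 7.02% a GAS match and 0.752% both, and a match is a description, not a site. The genes with an ISRE match and a test numbered 928, with a median log2 fold change of 0.02, and those with a GAS match 876, with a median of 0.01. The median was 0.01 over the 12640 tested genes that had a window. At an unadjusted p under 0.05 stood 5.93% of the ISRE genes and 7.19% of the GAS genes (6.9% and 5.72% without tofacitinib animal 2), beside 5.99% of all genes with a window (6.01% without that animal).

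No gene passed the test between tofacitinib and sham 5xFAD mice. Of 17518 genes 0 were called by edgeR (0%), and the smallest adjusted p was 0.788. At an unadjusted p under 0.05 there were 1017 genes (5.81%), of which 637 were higher (3.64%) and 380 lower (2.17%) with tofacitinib. Without tofacitinib animal 2, 0 of 17468 genes were called and 1009 had an unadjusted p under 0.05 (5.78%). That count depended on other animals more, at 2100 without tofacitinib animal 4, 650 without sham animal 1 and 528 in males only, each with 0 called. It also depended on the libraries that set the spread. It was 724 of 15702 genes with the 9 libraries alone. It was 1376 of 17879 without the 3 libraries of the series low in hippocampal markers. In both 0 were called. In 159 genes every tofacitinib animal lay above every sham animal (0.908% of those tested), and in 108 every one lay below (0.617%). Without tofacitinib animal 2 these were 320 (1.83%) and 261 genes (1.49%). DESeq2 called 1 gene, Chrna6, a nicotinic acetylcholine receptor subunit of midbrain and habenular neurons, which is named here because DESeq2 called it. Chrna6 had 1.62 CPM in tofacitinib animal 1, 0.104 to 0.268 CPM in the other tofacitinib animals and 0 CPM in each sham animal. Tofacitinib animal 1 also held the second-highest levels of the thalamic genes Tcf7l2 (30.8 CPM) and Shox2 (11 CPM), and the part of other brain regions in this call was not tested.

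The size of effect that these libraries can show is set by the spread between animals. Over the 14475 genes with a mean of 1 CPM or more, the 95% interval of 86.2% lay wholly within a 2-fold change in either direction. Over the 9877 genes at 10 CPM or more that share was 95.9%. Several plaque microglia genes, Cst7, Clec7a and Itgax among them, had wider intervals.

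The kinases that tofacitinib binds did not differ beyond their spread between the groups. In RPKM, which is scaled to gene length and allows genes to be compared, Jak1 was at 31.4 ± 1.75 with tofacitinib and 34.1 ± 2.62 with sham, Jak2 at 6.86 ± 0.678 and 6.49 ± 0.682, Jak3 at 1.14 ± 0.25 and 1.23 ± 0.23, and Tyk2 at 1.54 ± 0.146 and 1.70 ± 0.199. Jak1 was thus the most abundant of the 4 kinase transcripts and Jak3 and Tyk2 the least. The log2 fold changes were -0.15 for Jak1 (-0.36 to 0.07), 0.04 for Jak2 (-0.16 to 0.23), -0.14 for Jak3 (-0.54 to 0.26) and -0.20 for Tyk2 (-0.51 to 0.12). Stat3, which carries signals of the interleukin 6 family, was at 49.6 ± 6.84 CPM with tofacitinib and 53.5 ± 4.72 CPM with sham (log2 fold change -0.12, -0.34 to 0.10). Of 12 JAK and STAT genes 0 had an unadjusted p under 0.05, and the median log2 fold change was -0.11, beside 0.01 over all genes.

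Of 26 receptor genes that couple to JAKs, 2 had an unadjusted p under 0.05, both higher (7.69%, beside 5.81% of all genes), and the median was -0.08. These were Il15ra, the high-affinity receptor chain for interleukin 15 (log2 fold change 0.99, 0.22 to 1.77), and the growth hormone receptor Ghr (0.42, 0.06 to 0.78), both named for their p and at an adjusted p of 0.788. Il15ra had 1.96, 3.30, 0.904, 1.98 and 3.22 CPM with tofacitinib and 0.775, 0.880, 1.56 and 1.41 CPM with sham. The groups overlapped through tofacitinib animal 4.

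Feedback genes, here the SOCS genes that turn the pathway off and other genes that STATs induce, lay on both sides of 0. Of 24 listed 0 passed, 1 had an unadjusted p under 0.05 (4.17%, beside 5.81% of all genes), and the median was -0.05 (-0.02 without tofacitinib animal 2). Socs2, an inhibitor induced through STAT5, had 5.93, 7.12, 6.33, 7.57 and 11 CPM with tofacitinib and 8.27, 9.58, 9.69 and 10.9 CPM with sham. Of the tofacitinib animals 4 lay below every sham animal and animal 6 above them all (log2 fold change -0.33, -0.72 to 0.06, adjusted p = 0.788). Cish, the other classical STAT5 target, had 3.64, 14.2, 2.90, 3.13 and 4.34 CPM against 8.89, 2.33, 3.46 and 5.03 CPM. Its log2 fold change was 0.12 (-0.61 to 0.85) and became -0.44 (-1.07 to 0.18) without tofacitinib animal 2, which was the highest of the 9. Socs3, induced mainly through STAT3, had 2.01, 1.33, 0.516, 2.77 and 2.95 CPM against 1.96, 2.07, 2.71 and 1.13 CPM (-0.02, -0.92 to 0.88). Socs1 and Bcl3 were near or under 1 CPM in most libraries, and their intervals spanned a 2-fold change in 1 or both directions (0.41, -0.84 to 1.66, and -0.43, -1.98 to 1.11). Pim1, a kinase gene induced by STATs, stood at -0.13 (-0.86 to 0.61). The unadjusted p under 0.05 belonged to its relative Pim3 (0.33, 0.05 to 0.60, adjusted p = 0.788), with 28.6 to 44.2 CPM in tofacitinib and 24.3 to 32.9 CPM in sham animals.

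**Figure D2:**
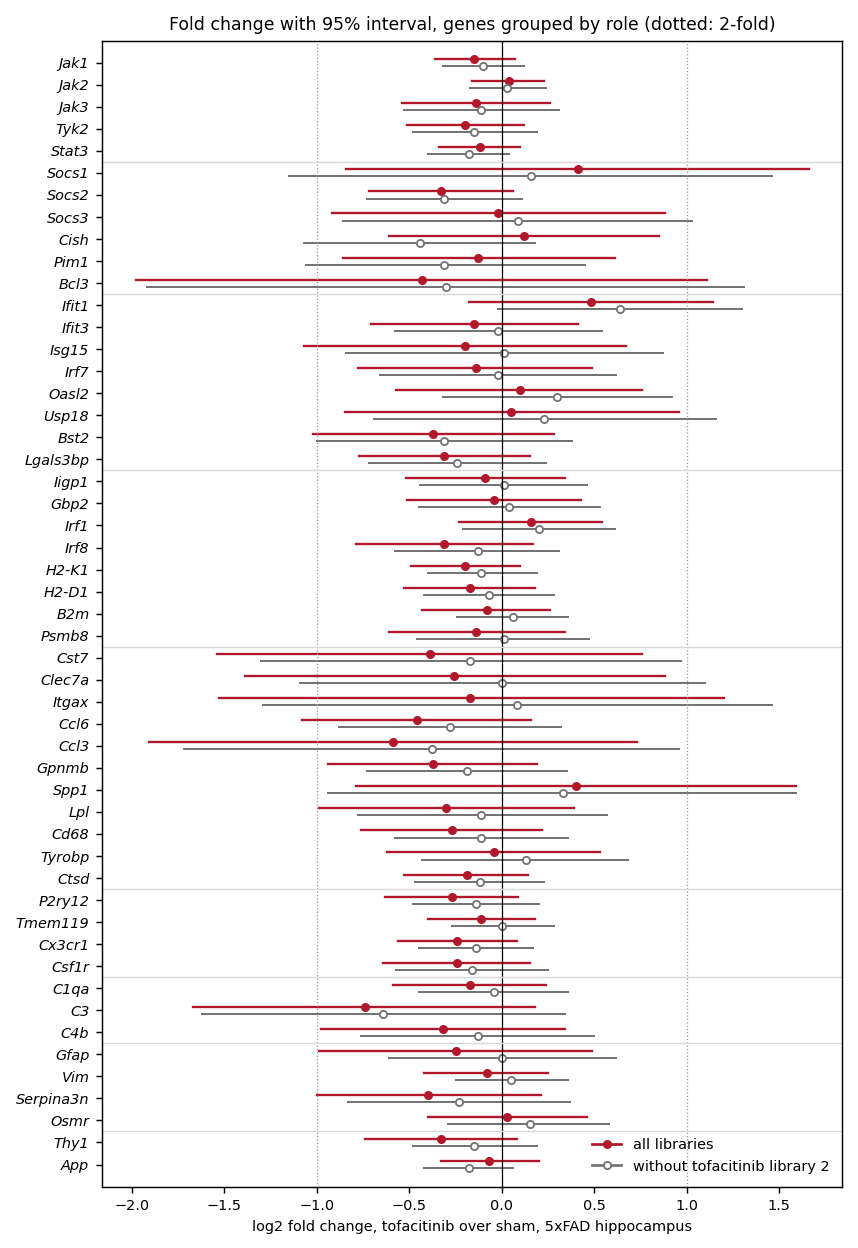
Log2 fold change of tofacitinib over sham in 5xFAD hippocampus (x axis) with its 95% interval for 51 genes ordered by role, those of regions and other cells left out, with all libraries (red) and without tofacitinib animal 2 (grey, open). All intervals shown for all libraries include 0, and those of Cst7 (-1.54 to 0.76) and Itgax (-1.53 to 1.2) reach past a 2-fold change.

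Type I interferon-stimulated genes did not separate the groups. Ifit3, an antiviral protein that binds other IFITs, had 20.1, 8.39, 9.75, 14.7 and 7.45 CPM in tofacitinib animals, against 11.4, 15.8, 15.4 and 8.82 CPM in sham animals. Tofacitinib animal 1 was the highest of the 9 and animal 6 the lowest. Its log2 fold change was -0.15 (-0.71 to 0.41, adjusted p = 0.914), and -0.02 without tofacitinib animal 2. The mean was 12.1 ± 5.28 CPM with tofacitinib and 12.9 ± 3.36 CPM with sham, and 6.49 ± 1.78 CPM in WT sham mice.

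Irf7, the transcription factor that amplifies the type I response, had 7.16, 3.18, 3.74, 4.02 and 2.47 CPM with tofacitinib and 3.41, 5.33, 3.23 and 4.64 CPM with sham (-0.14, -0.78 to 0.49). The ubiquitin-like Isg15 had 2.74, 0.637, 2.07, 2.14 and 1.07 CPM against 1.34, 2.23, 2.31 and 1.98 CPM (-0.20, -1.07 to 0.67). In both genes tofacitinib animal 1 was the highest of all 9 animals, and tofacitinib animals reached lower than any sham animal. The largest positive value of the named type I genes was that of Ifit1, at 6.77, 2.89, 3.68, 6.73 and 2.84 CPM against 4.13, 3.00, 3.00 and 2.77 CPM (0.48, -0.18 to 1.14, adjusted p = 0.788). It was 0.64 (-0.02 to 1.3) without tofacitinib animal 2. Oasl2, an OAS-like antiviral protein, stood at 0.10 (-0.57 to 0.76), and Usp18, which removes Isg15 and dampens the receptor, at 0.05 (-0.85 to 0.96). Bst2, the membrane protein that tethers virions, stood at -0.37 (-1.02 to 0.28), and the secreted glycoprotein Lgals3bp at -0.31 (-0.77 to 0.15).

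Of 47 type I genes tested 0 passed, 22 were above 0 and 25 below, and 1 had an unadjusted p under 0.05 (2.13%, beside 5.81% of all genes). The median was -0.05, and 0.04 without tofacitinib animal 2 (27 above 0 and 20 below). For 28 of the 47 the 95% interval lay within a 2-fold change. The exception at the unadjusted level was Oas3, which makes the second messenger that activates RNase L and is named for its p. It had 0, 0.174, 0.0645, 0.157 and 0 CPM in tofacitinib animals and 0.568, 0.362, 0.692 and 0.452 CPM in sham animals. Every tofacitinib animal lay below every sham animal (adjusted p = 0.788), as in 0.617% of all genes tested. All its values were under 1 CPM, and those of the tofacitinib animals rest on a few reads or none. The sources used here do not say how reads shared between Ifit, Oas or H2 class I paralogs were counted, so values of single members of these families are uncertain. As a mean over the list, the tofacitinib animals stood at 2.03, 1.36, 1.72, 1.87 and 1.17 log2 CPM and the sham animals at 1.71, 1.91, 1.70 and 1.53. All but 1 of these 9 were above the range of the WT sham animals, 0.75 to 1.17, and tofacitinib animal 6 was at its upper end.

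Genes of the interferon-gamma response and of MHC class I presentation, which displays peptides to CD8 T cells, lay on both sides of 0. B2m, the class I light chain, had 219, 116, 218, 233 and 129 CPM with tofacitinib and 184, 241, 197 and 145 CPM with sham (-0.08, -0.43 to 0.26). H2-D1 had 95.1, 56.9, 81.8, 77.4 and 50.3 CPM against 75.2, 99.1, 77.1 and 65.7 CPM (-0.17, -0.53 to 0.18), and H2-K1 was at 41.4 ± 8.61 against 46.7 ± 5.76 CPM (-0.20, -0.49 to 0.10). In B2m and H2-D1 tofacitinib animals 2 and 6 were the lowest of all 9. The immunoproteasome subunit Psmb8 was at 7.62 ± 2.40 against 8.19 ± 1.72 CPM (-0.14, -0.61 to 0.34). Of 21 class I genes 0 passed or had an unadjusted p under 0.05, with a median of -0.12 (-0.06 without tofacitinib animal 2).

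Irf1, the interferon-induced transcription factor whose promoter is printed above, had 7.84, 7.53, 8.39, 8.30 and 7.45 CPM with tofacitinib and 8.37, 7.71, 5.82 and 6.22 CPM with sham (0.16, -0.23 to 0.54). The interferon-induced GTPases Iigp1 and Gbp2 were at -0.09 (-0.52 to 0.34) and -0.04 (-0.51 to 0.43), with Gbp2 highest in tofacitinib animal 1 at 10.9 CPM. Irf8, a transcription factor of microglia and other myeloid cells, was at -0.31 (-0.79 to 0.17), and at -0.13 without tofacitinib animal 2. Of 24 interferon-gamma targets 0 passed and 16 were above 0, with a median of 0.10, and of 0.20 without tofacitinib animal 2 and 0.04 in males only. In 1 of them, the GTPase Gbp4, all tofacitinib animals lay above all sham animals, at 1.39 to 2.25 CPM against 0.879 to 1.3 CPM (0.67, -0.21 to 1.54). That was so in 0.908% of all genes tested. For 13 of the 24 the interval lay within a 2-fold change.

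**Figure D3:**
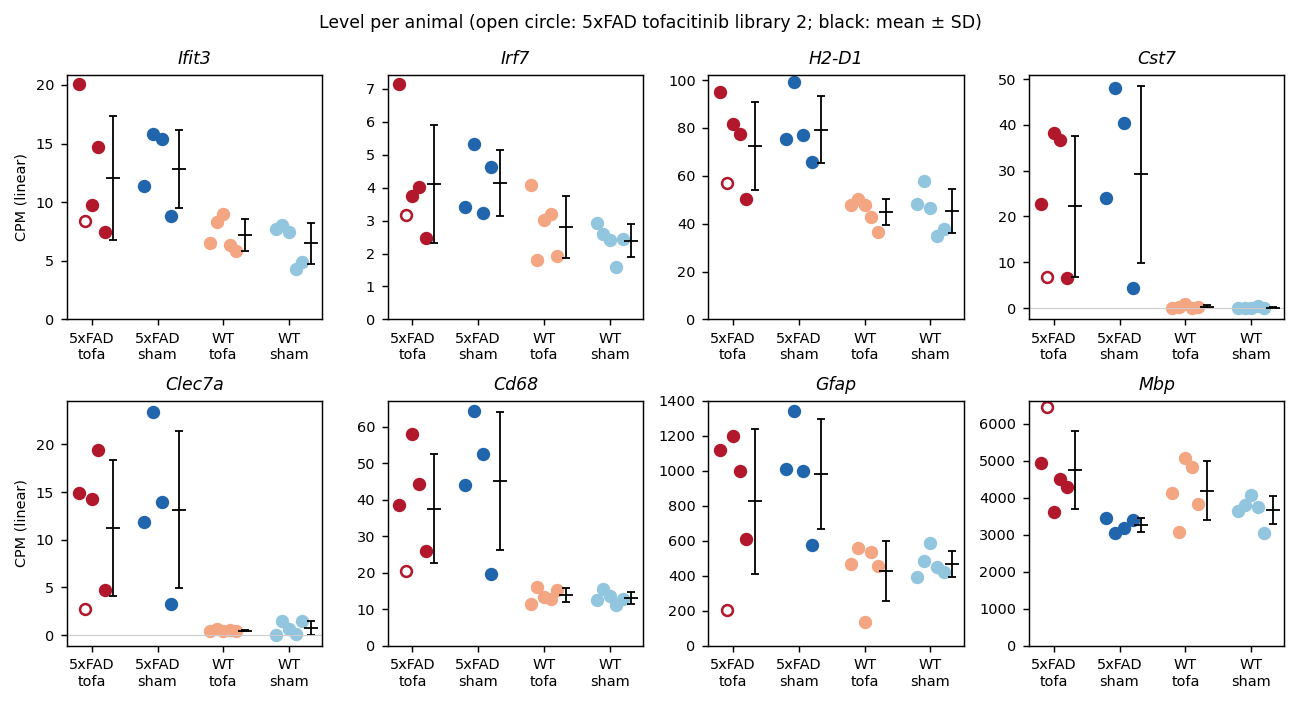
CPM per animal on linear axes for 8 genes in 5xFAD tofacitinib, 5xFAD sham, WT tofacitinib and WT sham mice, with the mean and SD in black and tofacitinib animal 2 as an open circle. For Cst7, Clec7a and Cd68 the 5xFAD groups each split into high and low animals and overlap, and Mbp is the gene whose tofacitinib animals all lie above the 4 sham animals.

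Genes of plaque-associated microglia spanned a wide range among the animals of each group. Cst7, a cystatin that microglia make at plaques, had 22.8, 6.77, 38.3, 36.6 and 6.59 CPM in tofacitinib animals, against 24.1, 48.1, 40.3 and 4.47 CPM in sham animals. Low animals occurred in both groups, namely tofacitinib animals 2 and 6 and sham animal 4. All were above WT sham mice, at 0.11 ± 0.155 CPM. The log2 fold change was -0.39 (-1.54 to 0.76, adjusted p = 0.886), and -0.17 (-1.3 to 0.97) without tofacitinib animal 2. In bulk tissue, fewer cells of a type and less RNA per cell cannot be told apart.

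The lectin receptor Clec7a had 14.9, 2.72, 14.3, 19.4 and 4.77 CPM with tofacitinib and 11.9, 23.4, 14.0 and 3.28 CPM with sham (-0.26, -1.39 to 0.88), and the integrin Itgax 4.92, 2.03, 12.3, 7.25 and 1.29 CPM against 6.82, 8.80, 8.82 and 0.509 CPM (-0.17, -1.53 to 1.2). The lysosomal glycoprotein Cd68 had 38.7, 20.6, 58.2, 44.4 and 25.9 CPM against 44.1, 64.5, 52.5 and 19.8 CPM (-0.27, -0.76 to 0.22). In all 3 genes tofacitinib animals 2 and 6 and sham animal 4 were the lowest of the 9. The chemokines Ccl6 and Ccl3 stood at -0.46 (-1.08 to 0.16) and -0.59 (-1.91 to 0.73), and became -0.28 and -0.38 without tofacitinib animal 2. The signalling adaptor Tyrobp (-0.04, -0.62 to 0.53) and the lysosomal protease Ctsd (-0.19, -0.53 to 0.14) were nearer to 0. Gpnmb (-0.37), the lipase Lpl (-0.30) and osteopontin, encoded by Spp1 (0.40), did not pass either.

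Of 38 plaque-associated genes tested 0 passed and 0 had an unadjusted p under 0.05, beside 5.81% of all genes. The median was -0.04, with 15 above 0 and 23 below, and 0.02 without tofacitinib animal 2, with 20 above and 18 below. For 21 of the 38 the interval lay within a 2-fold change, and for the other 17, Cst7, Clec7a and Itgax among them, the interval reached past a 2-fold change in 1 or both directions. The list's mean was 4.35, 3.72, 4.59, 4.42 and 3.70 log2 CPM in tofacitinib animals and 4.34, 4.56, 4.43 and 3.50 in sham animals. Tofacitinib animals 2 and 6 and sham animal 4, the lowest on this list, were 3 of the 4 animals with high Ttr, and sham animal 1, which also had high Ttr, was at 4.34. The part of choroid plexus content in these levels was not tested.

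Genes of homeostatic microglia, which mark the cells away from plaques as well, lay mostly below 0 without passing the test. P2ry12, the ADP receptor of microglial processes, had 62.1, 37.7, 78.0, 65.5 and 48.4 CPM with tofacitinib and 69.0, 88.6, 73.8 and 49.8 CPM with sham (-0.27, -0.63 to 0.09). The groups overlapped. The fractalkine receptor Cx3cr1 stood at -0.24 (-0.56 to 0.08), the growth factor receptor Csf1r at -0.24 (-0.64 to 0.15), Tmem119 at -0.11 (-0.40 to 0.18) and the transcription factor Sall1 at -0.19 (-0.42 to 0.04). The phagocytic receptor Mertk was at -0.31 (-0.72 to 0.10) and the receptor P2ry13 at -0.27 (-0.64 to 0.09). Of 20 listed genes 17 were below 0, with a median of -0.17 and 0 at an unadjusted p under 0.05. The median was -0.09 with 15 below when tofacitinib animal 2 was left out, and -0.06 in males only.

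C1qa, a chain of the classical pathway's recognition molecule made by microglia, had 183, 103, 223, 176 and 109 CPM against 176, 262, 179 and 96.2 CPM (-0.17, -0.59 to 0.24). Tofacitinib animals 2 and 6 and sham animal 4 were again the lowest. C4b stood at -0.32 (-0.98 to 0.34). C3, the central complement protein, was at 2.46, 1.74, 1.74, 2.35 and 1.93 CPM with tofacitinib and at 4.50, 3.73, 1.15 and 4.07 CPM with sham. Of the sham animals 3 lay above every tofacitinib animal and 1 below (-0.74, -1.67 to 0.18, adjusted p = 0.788). Of 19 complement genes 13 were below 0 and 0 passed, with a median of -0.12 (-0.04 without tofacitinib animal 2).

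Of 34 genes of Toll-like receptor and NF-kB signalling, the innate pathway that does not run through JAKs, 27 were below 0, with a median of -0.16. At an unadjusted p under 0.05 stood 2 (5.88%, beside 5.81% of all genes), both lower and named for their p. These were the adaptor Ticam1 (-0.48, -0.82 to -0.13) and the NF-kB subunit Relb (-0.53, -0.97 to -0.10), each at an adjusted p of 0.788. When tofacitinib animal 2 was left out the list had 21 below 0 and a median of -0.10. Of 17 chemokine genes 12 were above 0, with a median of 0.03, and of 0.29 without tofacitinib animal 2, and 0 had an unadjusted p under 0.05. MHC class II genes had a median of -0.11 over 9, with 2 of the 9 intervals within a 2-fold change. Of 29 genes of infiltrating macrophages, monocytes and lymphocytes 16 passed the filter on low counts, with a median of -0.11. At an unadjusted p under 0.05 were 2 (12.5%, beside 5.81% of all genes), both named for their p. Cd4 was higher, and at 24.6 CPM in tofacitinib animal 2, and Ccr2 was lower. Both had an adjusted p of 0.788, and neither had such an unadjusted p without tofacitinib animal 2.

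Astrocyte genes did not separate the groups. Gfap, the intermediate filament of reactive astrocytes, had 1120, 202, 1200, 998 and 611 CPM in tofacitinib animals, against 1010, 1340, 1000 and 575 CPM in sham animals. The lowest was tofacitinib animal 2, at less than the mean of WT sham mice (467 ± 74.8 CPM). The log2 fold change was -0.25 (-0.99 to 0.49), and 0.00 (-0.61 to 0.62) without that animal. The protease inhibitor Serpina3n was at -0.40 (-1 to 0.21), vimentin, encoded by Vim, at -0.08 (-0.42 to 0.25) and the oncostatin M receptor Osmr, which signals through JAKs, at 0.03 (-0.40 to 0.46). Of 30 reactive astrocyte genes 0 passed, with a median of -0.06 and 0.04 without tofacitinib animal 2.

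Thy1, whose promoter drives the transgenes, and App were read next. Thy1 had 2280, 967, 2820, 2070 and 1790 CPM with tofacitinib and 2810, 2650, 2570 and 1930 CPM with sham, each above the WT sham mice at 876 ± 40.2 CPM. The sources used here do not say whether transgene reads entered these counts. The log2 fold change was -0.33 (-0.74 to 0.08), and -0.15 (-0.48 to 0.19) without tofacitinib animal 2, the lowest of the 9. App was at 1570 ± 333 against 1630 ± 140 CPM (-0.07, -0.33 to 0.20), and at 1670 ± 207 CPM in WT sham mice, whose range overlapped that of both 5xFAD groups. Of 17 genes of amyloid precursor processing 2 had an unadjusted p under 0.05 (11.8%, beside 5.81% of all genes), both higher and named for their p. The amyloid-degrading protease gene Mme was at 0.83 (0.08 to 1.58), and at 0.31 without tofacitinib animal 2. For the gamma-secretase subunit gene Psenen every tofacitinib animal (26.3 to 29.3 CPM) lay above every sham animal (20.3 to 24.4 CPM), as in 0.908% of all genes tested. Its log2 fold change was 0.30 (0.09 to 0.52, adjusted p = 0.788).

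Myelin genes lay mostly above 0, without any passing the test. Mbp, a main protein of compact myelin, had 4930, 6450, 3620, 4520 and 4280 CPM with tofacitinib and 3450, 3050, 3170 and 3400 CPM with sham. Every tofacitinib animal lay above every sham animal, as in 0.908% of all genes tested. The means were 4760 ± 1050 and 3270 ± 190 CPM, and 3660 ± 378 CPM in WT sham mice. The log2 fold change was 0.55 (0.15 to 0.94, adjusted p = 0.788), and 0.42 (0.03 to 0.80, adjusted p = 0.845) without tofacitinib animal 2, the highest. Aspa, the oligodendrocyte enzyme that cleaves N-acetylaspartate, had 14.5, 20, 8.84, 15.7 and 10.8 CPM against 7.6, 6.11, 7.84 and 9.27 CPM (0.88, 0.39 to 1.37), with tofacitinib animal 4 below sham animal 4. The proteolipid gene Mal stood at 0.52 (0.18 to 0.87).

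Of 25 myelin and oligodendrocyte genes 23 were above 0, with a median of 0.42. At an unadjusted p under 0.05 stood 11, all higher (44%, beside 5.81% of all genes in either direction and 3.64% higher). Without tofacitinib animal 2 the median was 0.24, with 20 above 0. Then 3 of 25 had an unadjusted p under 0.05, beside 5.78% of all genes. In males only the median was 0.15. The list's level was 6.82, 7.62, 6.44, 6.62 and 6.72 log2 CPM in tofacitinib and 6.69, 6.29, 6.31 and 6.67 in sham animals, and 6.49 to 6.73 in WT sham mice. Tofacitinib animal 2, with its high thalamus and striatum genes, was the highest, and tofacitinib animal 4 and sham animals 2 and 3 were below all WT sham animals. The thalamus and habenula list was at 3.53 in tofacitinib animal 1 and at 3.05 or below in the sham animals. Whether tissue from outside the hippocampus has a part in the myelin values was not tested.

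Neuronal genes of the hippocampus were mostly below 0. Of 28 excitatory synapse genes 24 were below 0 with all libraries and 24 without that animal, with medians of -0.26 and -0.12 and 0 at an unadjusted p under 0.05 either way. The synaptic vesicle gene Syn1 had 554, 508, 804, 558 and 608 CPM against 835, 782, 705 and 689 CPM (-0.32, -0.64 to 0.01). Of the tofacitinib animals 4 lay below every sham animal and animal 4 above all but 1. The glutamate receptor subunit Grin1 (-0.27, -0.56 to 0.02) and the calcium sensor of vesicle release Syt1 (-0.27, -0.61 to 0.08) were alike in size. In males only the list's median was -0.05. Of 20 dentate granule cell genes 16 were below 0 (median -0.31, and -0.17 without tofacitinib animal 2), among them Prox1 (-0.35, -1.05 to 0.35), the transcription factor of granule cells, and the channel gene Trpc6 (-0.73, -1.55 to 0.10), and of 14 CA1 genes 13 (median -0.28, and -0.11 without that animal), among them Wfs1 (-0.33, -0.96 to 0.29). The CA1 gene above 0 was Klhl13 (0.78, 0.15 to 1.41), which was also the only CA1 gene at an unadjusted p under 0.05. Klhl13 was at 0.35 (-0.14 to 0.83) without that animal. Immediate-early genes of neuronal activity had a median of -0.06 over 30 genes and 0.01 without that animal.

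The lists for neighbouring regions showed how 1 library can set a group's value. Of 25 thalamus and habenula genes 23 were above 0, with a median of 1.4 and 12 at an unadjusted p under 0.05 (48%, beside 5.81% of all genes). Leaving out tofacitinib animal 2 gave a median of 0.06 and 3 of 25 genes at an unadjusted p under 0.05, beside 5.78% of all genes. Of 19 striatum genes 19 were above 0 with a median of 1.69, and 7 without that library, with a median of -0.08. The dopamine receptor gene Drd1 had 2.80, 58.0, 3.55, 7.04 and 4.45 CPM with tofacitinib and 3.05, 3.47, 6.75 and 4.24 CPM with sham. The other 4 tofacitinib animals overlapped the sham animals. Genes of catecholamine and cholinergic neurons had a median of 0.94 and of 0.06 without it.

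Choroid plexus and ependymal genes lay farther from 0 when that library was left out. Of 20 choroid plexus genes 19 were below 0 with a median of -0.37, and 20 below with a median of -1.39 without it. Of the remaining animals, 1 of 4 with tofacitinib and 2 of 4 with sham had high Ttr. The intervals were wide, as for the anti-ageing hormone gene Kl (-0.54, -2.43 to 1.35), at 156 and 105 CPM in tofacitinib animals 2 and 6 and 11.6 to 22.3 CPM in the other 3, and at 177 and 146 CPM in sham animals 1 and 4 and 15.3 to 17.4 CPM in the others. The ependymal list, with the ciliary transcription factor Foxj1 at -0.14 (-1 to 0.71), had a median of -0.21 with all libraries and of -0.46 without that library.

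Other cell types and processes showed small values. Of 22 endothelial and pericyte genes 19 were above 0. Their median was 0.17 with and without tofacitinib animal 2 and 0.07 in males only. Of these genes 1 had an unadjusted p under 0.05 (4.55%, beside 5.81% of all genes), the endothelial surface protein gene Ly6c1 (0.33, 0.02 to 0.64). All 13 mitochondrially encoded genes were above 0, with a median of 0.14 (0.15 without tofacitinib animal 2 and 0.01 in males only) and 0 at an unadjusted p under 0.05. In the unfolded protein and amino acid stress response list 5 of 25 had an unadjusted p under 0.05 (20%, beside 5.81% of all genes). Without tofacitinib animal 2 it was also 5 of 25, beside 5.78% of all genes. With all libraries 4 of the 5 were lower and 1 higher, around a median of -0.02. Of these, named for their p, asparagine synthetase, encoded by Asns, had 80.6, 85.7, 79.6, 77.0 and 77.3 CPM with tofacitinib and 94.7, 86.5, 91.7 and 95.6 CPM with sham (-0.21, -0.36 to -0.06). The glutathione-degrading enzyme gene Chac1 was at 3.59 to 5.79 CPM against 5.95 to 8.20 CPM (-0.56, -1 to -0.12). In both every tofacitinib animal lay below every sham animal, as in 0.617% of all genes tested, and both had an adjusted p of 0.788. The serine pathway genes Shmt2 and Psat1 were at -0.24 (-0.43 to -0.06) and 0.18 (0.02 to 0.34), and the endoplasmic reticulum protein gene Creld2 at -0.45 (-0.83 to -0.06). Medians were 0.03 for cholesterol biosynthesis, 0.04 for glucocorticoid-responsive genes, 0 for the circadian clock, -0.02 for heat shock genes and -0.02 for dentate neurogenesis. In that order 1 of 25 (4%), 0 of 26, 3 of 20 (15%), 1 of 22 (4.55%) and 0 of 18 had an unadjusted p under 0.05. The share of all genes was 5.81%. The 3 circadian genes became 1 without tofacitinib animal 2. For cell types and regions not given above, medians were 0.09 for homeostatic astrocytes, 0 for oligodendrocyte precursors and 0.02 for inhibitory interneurons. They were -0.09 for CA2 and CA3 pyramidal cells, -0.11 for neocortex, -0.05 for leptomeninges and fibroblasts and 0 for red cell genes. In that order 2 of 22, 3 of 15, 3 of 24, 1 of 17, 1 of 20, 0 of 16 and 1 of 8 had an unadjusted p under 0.05. These shares were 9.09%, 20%, 12.5%, 5.88%, 5%, 0% and 12.5%, beside 5.81% of all genes. Without tofacitinib animal 2 the counts were 1, 3, 0, 0, 0, 0 and 0.

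**Figure D4:**
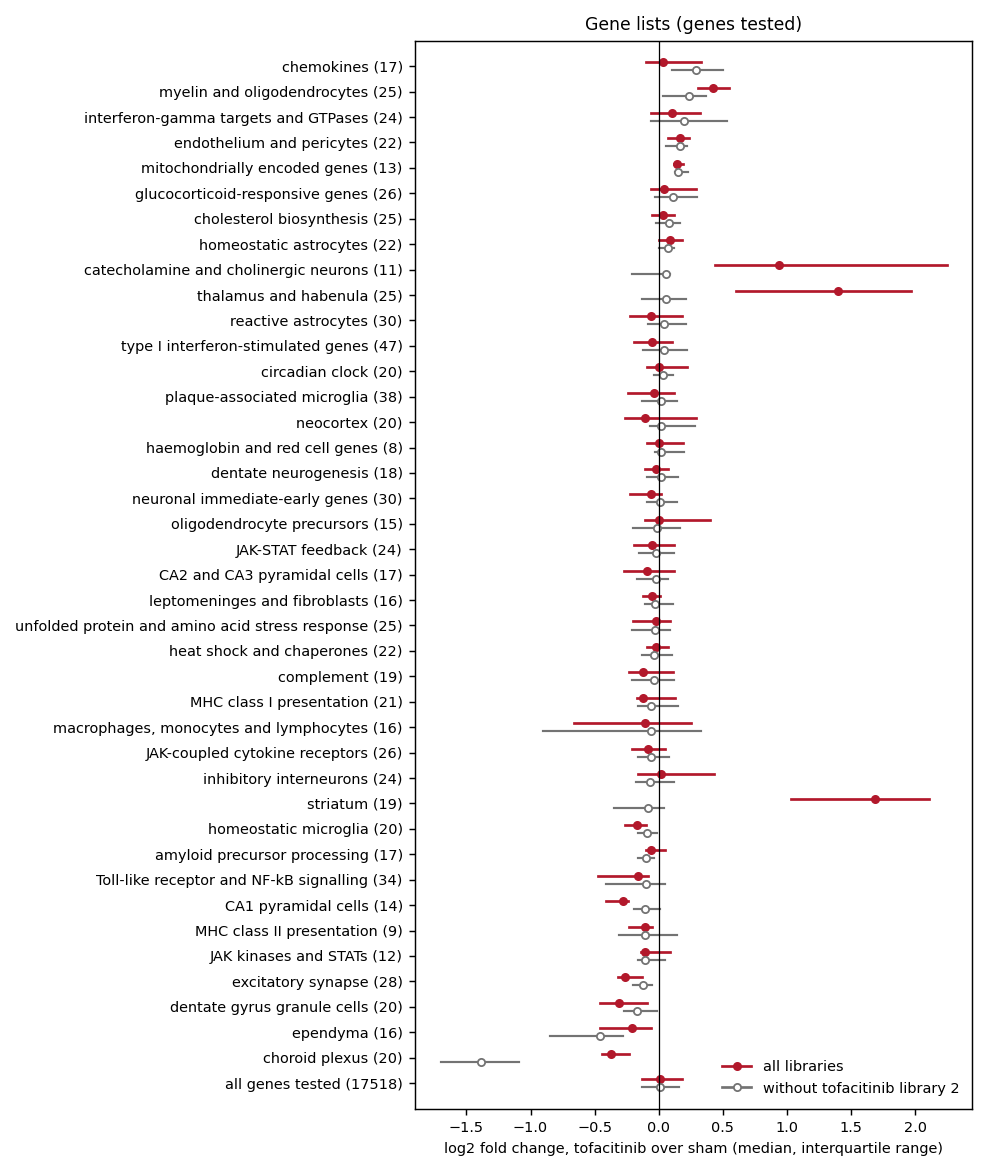
Median (circle) and interquartile range (line) of log2 fold changes over the genes of each list, with the number tested in parentheses, for all libraries (red) and without tofacitinib animal 2 (grey, open). The striatum and the thalamus and habenula lists are at 1.69 and 1.4 with that library and at -0.08 and 0.06 without it, while the interferon and microglia lists lie between -0.17 and 0.20 either way.

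Across all genes, those with the smallest p values did not pass either. The smallest p of all genes was that of Tmprss7, a membrane-bound serine protease gene, at 0.112, 0.0579, 0.258, 0.731 and 0.589 CPM in tofacitinib and 0.775, 1.14, 1.67 and 2.38 CPM in sham animals. Every tofacitinib animal lay below every sham animal, as in 0.617% of all genes tested (-2.01, -2.93 to -1.08, unadjusted p = 0.000106, adjusted p = 0.788). Tmprss7 was at -1.79 without tofacitinib animal 2. Among genes with a mean of at least 1 CPM, Lyrm2, a small mitochondrial protein gene of the LYR family, had 11.6, 11.1, 13.4, 14.9 and 12.5 CPM against 7.44, 7.19, 6.80 and 9.05 CPM. All tofacitinib animals lay above all sham animals, as in 0.908% of all genes tested. The log2 fold change of Lyrm2 was 0.74 (0.37 to 1.11, adjusted p = 0.788), and 0.79 without tofacitinib animal 2 (adjusted p = 0.845).

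Others of the 20 smallest p were on either side of 0. Above it were the histone gene H4c9 (1.43), Efcab15 (1.22), Zfp92 (1.2), the glycosyltransferase gene Poglut2 (0.83), the ubiquitin ligase gene Rnf13 (0.48), the Mediator subunit gene Med7 (0.42), the mitochondrial carrier gene Slc25a27 (0.40) and Pyurf (0.38). Below it were the GTPase regulator gene Sh3bp1 (-0.61), the sialyltransferase gene St3gal1 (-0.53), the ion channel gene Tmem63c (-0.50), the microtubule minus-end protein gene Camsap3 (-0.41), Frat1, a regulator of GSK-3 (-0.34), the Wnt cofactor gene Pygo2 (-0.28) and Kdelr1, which retrieves proteins to the endoplasmic reticulum (-0.20). In Zfp92, Poglut2 and Rnf13 every tofacitinib animal lay above every sham animal, as in 0.908% of all genes tested. In Tmem63c, Frat1, Pygo2 and Kdelr1 every one lay below, as in 0.617%. These genes were picked for their small p in the same comparison, so such separation is no further evidence. Kdelr1 shows how small such a difference can be, with 64.2, 58.1, 63.1, 57.9 and 60.6 CPM against 68.2, 68.6, 71.7 and 69.7 CPM. All had an adjusted p of 0.788. Of the 20 genes, 3 were models without a symbol of their own.

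Further genes had small p values when tofacitinib animal 2 was left out. Ift20 and Hspb11, both parts of the transport machinery of cilia, were at 0.56 (0.25 to 0.86) and 0.68 (0.29 to 1.07), the NF-kB adaptor gene Bcl10 at 0.44 (0.19 to 0.69) and Vwa5b2 at 0.64 (0.30 to 0.99). Below 0 were Reep2 (-0.30), the helicase gene Dhx37 (-0.48), the phosphoinositide phosphatase gene Inpp5e (-0.56) and the ubiquitin-conjugating enzyme gene Ube2z (-0.20). All had an adjusted p of 0.845. In Reep2 and Inpp5e that library, at 122 and 27.2 CPM, was the highest of the 9, and their log2 fold changes were -0.16 and -0.29 with it.

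Pomc, the precursor of endorphin and melanocortin peptides, was named from the comparison with 5xFAD-Dp16 mice. It had 2.57, 5.96, 5.10, 2.04 and 3.38 CPM with tofacitinib and 0.465, 1.04, 0.923 and 0.622 CPM with sham in 5xFAD mice. All tofacitinib animals lay above all sham animals, as in 0.908% of all genes tested (2.13, 0.28 to 3.99, adjusted p = 0.788). WT sham mice averaged 3.03 ± 2.90 CPM.

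Whether the response of 5xFAD mice differed from that of another genotype was tested by the difference of the 2 responses. Within each difference the 2 responses share no library. All the differences use the same 9 5xFAD libraries, so a gene that recurs in them is not separate evidence. Against WT mice edgeR called 0 genes and 329 had an unadjusted p under 0.05 (1.88%), and DESeq2 called 1, Chrna6. Against Dp16 mice edgeR called 0 with 567 at an unadjusted p under 0.05 (3.24%), and DESeq2 called 2, Armc6 and Sox14. Against 5xFAD-Dp16 mice edgeR called 0 with 1446 (8.25%), and DESeq2 called 3, Glra1, Pomc and Chrna6. Chrna6 and Sox14 are named here for these calls. Sox14 had 2.41 and 0.579 CPM in 5xFAD tofacitinib animals 1 and 2 and 0 CPM in every other 5xFAD animal. On the thalamus and habenula list those animals, at 3.53 and 6.25 log2 CPM, were the highest 5xFAD animals. The part of other brain regions in the Sox14 call was not tested. The 1446 became 392 without 5xFAD-Dp16 sham animal 4, 2281 and 2482 without 5xFAD-Dp16 sham animals 1 and 2, 538 without the 3 libraries low in hippocampal markers and 487 with 2 surrogate variables. The 567 against Dp16 became 893 without 5xFAD tofacitinib animal 4 and 858 without Dp16 tofacitinib animal 1, and the 329 against WT became 540 without those 3 libraries. Cst7 differed in its response from WT mice by -1.54 (SE 1.44) and Isg15 by -1.07 (SE 0.60), both at an adjusted p of 1, and became -0.38 and -0.77 without the 3 libraries low in hippocampal markers.

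Among the genes with the smallest p against WT mice were Parp10, Mybph, Shld2 and Tmprss7, all at an adjusted p of 1. Parp10, an ADP-ribosyltransferase gene induced by interferon, averaged 1.11 ± 0.543 CPM with tofacitinib and 2.17 ± 0.599 CPM with sham in 5xFAD mice, and 1.65 ± 0.377 and 0.966 ± 0.191 CPM in WT mice (difference of responses -1.72, SE 0.42). By its means Parp10 was lower with tofacitinib in 5xFAD mice and higher in WT mice, without passing the test.

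Against Dp16 mice the smallest p belonged to Armc6, at 17.6 ± 1.87 CPM with tofacitinib and 21.3 ± 1.82 CPM with sham in 5xFAD mice, and 21.9 ± 2.01 and 16 ± 0.621 CPM in Dp16 mice (-0.74, SE 0.14, adjusted p = 0.12). Leaving out 5xFAD tofacitinib animal 5 gave -0.80 and an adjusted p of 0.0378. The mitochondrial ATP synthase subunit gene mt-Atp8 was next (1.33, SE 0.29, adjusted p = 0.584). Its adjusted p was 0.0303 without Dp16 sham animal 2 and 0.0315 without Dp16 tofacitinib animal 1, and it averaged 17.3 ± 2.02 CPM with tofacitinib and 16.7 ± 1.96 CPM with sham in 5xFAD mice, and 15.2 ± 4.31 and 36.1 ± 13.3 CPM in Dp16 mice. Nbeal1, Lpcat1 and Nfkbil1 followed, each at an adjusted p of 0.998. Against 5xFAD-Dp16 mice the smallest p belonged to Glra1, Armc6, Pomc and 2 models without a symbol of their own, all at an adjusted p of 0.468. Glra1, the glycine receptor subunit of brainstem and spinal cord, had a difference of 9.80 (SE 2.16) that was 0.94 without the 3 libraries low in hippocampal markers, of which 1 is a 5xFAD-Dp16 sham library.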

How the data were processed

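RNA from the hippocampus of 34 mice was read as poly(A)-enriched, strand-specific 150 bp read pairs, per the labels' protocols. Per the submitters' processing notes, the build was GRCm38 and the tools included HTSeq 0.6.1 and HISAT2 2.1.0, with no roles given. The authors' deposited table held whole read counts per gene, and a second deposited table held RPKM, made by the authors, which was used only to compare levels between genes. No source used here gives the strand setting of counting, so reads of overlapping or antisense genes cannot be told apart.

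All 34 libraries entered 1 edgeR 4.0.16 fit (R 4.3.3, TMM, filterByExpr by group, robust quasi-likelihood) with a mean per group and a term for sex, with 25 residual degrees of freedom. Tests were two-sided, adjusted over 17518 genes of 55385. Alternatives were DESeq2 1.42.0, its size factors, no filter, no sex term, 2 surrogate variables (sva 3.50.0), the replicate number as a block, males only, the 9 libraries alone, leaving out the 3 libraries low in hippocampal markers (5xFAD tofacitinib 2, WT tofacitinib 3 and 5xFAD-Dp16 sham 4) and leaving out each library in turn. The edgeR fit was tested on simulated data.

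The comparison, the 62 genes ordered by role and the 40 lists (897 of 900 entries in the files) were chosen with earlier results of these data known. Named besides were the 20 smallest p with at least 1 CPM on average, the 15 smallest without tofacitinib animal 2, up to 3 genes of each of 12 one-sided lists, and the 5 smallest p of each difference between genotypes. A few of these stand in counts and plots only, and genes outside this rule are said to be named for their p. Some genes this rule chose are not reported here. Promoters came from RefSeq (GRCm38.p6).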

Additional observations from a re-analysis of the deposited data

Results flagged for a closer look

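Values of named genes were searched for a single animal far from the others of its group, by the gap to its neighbour over the range of the group. Chance gives such a value in about 1 in 20 groups of values not chosen beforehand. Here some genes were named because tofacitinib animal 2 set the direction of their list, or for their p once it was left out, so the count cannot be read against that rate. There were 32 in 260 pairs of a gene and a group, and 17 of them were in tofacitinib animal 2.

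In tofacitinib animal 2 thalamic genes were high, with Tcf7l2 at 206 CPM, Prkcd at 377 CPM and Shox2 at 87.8 CPM, against at most 30.8, 25.9 and 11 CPM in the other tofacitinib animals. Striatal genes were high there too, with Drd1 at 58 CPM, Adora2a at 85.9 CPM, Syndig1l at 137 CPM and Tac1 at 38.3 CPM. The cholinergic genes Chat, Slc5a7 and Slc18a3 stood at 7.87, 17.5 and 4.4 CPM. Cish (14.2 CPM), App (2150 CPM), Reep2 (122 CPM), Inpp5e (27.2 CPM), Klhl13 (88.6 CPM), Zfp92 (8.39 CPM) and Gng8 (3.71 CPM) were likewise highest in that animal.

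Tofacitinib animal 1 was far above the others of its group in Gbp2 (10.9 CPM), Bcl3 (1.29 CPM), the smooth muscle gene Tagln (25.3 CPM) and mt-Nd4l (24.6 CPM). Tofacitinib animal 4 was so in Prox1 (139 CPM), Grin1 (511 CPM) and Nfkbil1 (14.7 CPM).

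Among sham animals, animal 1 was high in Ifit1 (4.13 CPM) and Glra1 (0.155 CPM, a few reads), low in Adora2a (2.17 CPM), and, as the only female, high in Xist (44.9 CPM). Sham animal 2 was high in Bcl3 (1.55 CPM) and Mertk (63.8 CPM), sham animal 3 in Vwa5b2 (19.5 CPM), and sham animal 4 in Shox2 (0.0566 CPM, at about 1 read).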

How the results depend on the processing

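With edgeR, the count of genes called between tofacitinib and sham 5xFAD mice was 0 under DESeq2 size factors, no sex term, 2 surrogate variables, males only, the 9 libraries alone and without the 3 libraries low in hippocampal markers, and without each of the 9 libraries in turn (0 to 0). It was 1 with DESeq2, 394 with no filter, and 79 with no filter and tofacitinib animal 2 left out, a setting chosen after seeing the data. With no filter the median of the prior degrees of freedom over genes was infinite. At that value a gene's spread is taken wholly from the trend fitted over genes of like level. The standard error of Tcf7l2 was 0.16 in place of 1.02. Of the 394 genes, tofacitinib animal 2 was the highest or lowest of the 9 in 361 (91.6%), beside 45.3% of all genes tested.

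For the differences between genotypes, counts against WT were 62 with no filter, 61 with no filter and tofacitinib animal 2 left out, and 1 with DESeq2. Against Dp16 they were 96, 14 and 2, and 0 to 1 over the refits without 1 library. Against 5xFAD-Dp16 they were 849, 299 and 3, and 1757 in males only, where 1 library, 5xFAD-Dp16 sham 4, stands for its group.

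The labels give the groups shared numbers 1, 2 and 4 and do not say that these mark a shared litter or day. Deviations of same-numbered animals had correlations of -0.16, -0.25 and -0.23, and those of differently numbered animals ran from -0.20 to 0.30. So few values cannot decide whether the numbers mark a shared litter or day. The numbers were not taken as pairs. With the replicate number as a block edgeR called 0 genes and 1283 had an unadjusted p under 0.05.

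Of the 139 named genes 93 kept the sign of their fold change in every alternative. Many were named for a small p or a one-sided list in these same data. That count therefore cannot show how stable signs are in general. The 95% interval lay within a 2-fold change for 71.6% of all genes tested.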
